A study of Mus musculus with 25 samples.

Results

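The tumor necrosis factor (TNF) superfamily ligands are described here as 9 genes, Tnf, Tnfsf4, Tnfsf8, Tnfsf9, Tnfsf10, Tnfsf12, Tnfsf13b, Tnfsf14 and Tnfsf15, out of 24411 gene symbols in the count files. They were taken by symbol, from a list drawn up with earlier results of these data known. RNA-seq of rRNA-depleted total RNA was available for 25 samples in 9 groups. Bone marrow-derived macrophages (BMDMs) were grown from C57BL/6 mice for 4 days in 25 ng/ml macrophage colony-stimulating factor (M-CSF), and every BMDM group shared this step. The 7 BMDM groups had 3 samples each: unpolarized control, labelled as cultured for 4 h; IFN-γ at 100 U/ml with LPS at 100 ng/ml (IFN-LPS) for 1, 4, 12 and 24 h; IL-4 at 10 ng/ml for 12 h; and IL-13 at 10 ng/ml for 12 h. RAW264.7, an established mouse macrophage cell line, had 2 untreated samples and 2 samples given LPS alone at 100 ng/ml for 4 h. All BMDM comparisons with control used the same 3 control samples, which match only the 4 h time. IFN-γ and LPS were always given together in the BMDM samples analysed here, so their contributions cannot be told apart, and how long IFN-γ preceded LPS is not given in the sources used here. Where a difference is reported for these bulk samples, fewer cells of a type and less RNA per cell cannot be told apart.

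Ligands of this family are mostly made as trimeric type II membrane proteins, and several of them are also cut from the cell surface into soluble form. They bind receptors of the TNF receptor superfamily, which recruit TRAF adaptors toward NF-κB and MAP kinase signalling or, where a death domain is present, toward caspase activation. In macrophages, Tnf is the classic early product of LPS recognition, whereas Tnfsf4, Tnfsf8, Tnfsf9 and Tnfsf15 are best known as co-stimulators of T cells. Tnfsf10 (TRAIL) engages death receptors, Tnfsf13b (BAFF) is a survival factor of B cells, Tnfsf12 (TWEAK) acts through Tnfrsf12a, and Tnfsf14 (LIGHT) acts through Tnfrsf14 and Ltbr.

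The genes lie on 6 chromosomes (GRCm38, GENCODE M21): Tnf at chr17:35199381-35202007, Tnfsf9 at chr17:57105325-57107757 and Tnfsf14 at chr17:57189492-57194177, Tnfsf15 at chr4:63727084-63745113 and Tnfsf8 at chr4:63831308-63861347, Tnfsf4 at chr1:161395409-161418410, Tnfsf10 at chr3:27317028-27342427, Tnfsf12 at chr11:69686250-69695849 and Tnfsf13b at chr8:10006467-10039072. Tnfsf15 and Tnfsf8 are 86.2 kb apart, and Tnfsf9 and Tnfsf14 are 81.7 kb apart.

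The bases upstream of 3 ligands are shown because the RNA of each was above control at 4 h, from different starting levels and to different heights. Tnf and Tnfsf15 were already above control at 1 h, while Tnfsf10 overlapped it. Tnfsf8 and Tnfsf13b, whose windows are not printed, were also above control at 4 h. RefSeq promoter windows (GRCm38.p6) matched 6 of the 9 members, and no window was used here for Tnfsf4, Tnfsf9 or Tnfsf12. Each line gives the 250 bases before the annotated start, 5′ to 3′ on the strand of the gene, and capitals mark matches, on either strand, to any of 6 short motifs: the TATA box (TATAAA), the NF-κB motif, IRF (AANNGAAA), AP-1 (TGANTCA), STAT (TTCNNNGAA) and ETS (AGGAAG).
Tnf, chr17:35202008-35202257, minus strand: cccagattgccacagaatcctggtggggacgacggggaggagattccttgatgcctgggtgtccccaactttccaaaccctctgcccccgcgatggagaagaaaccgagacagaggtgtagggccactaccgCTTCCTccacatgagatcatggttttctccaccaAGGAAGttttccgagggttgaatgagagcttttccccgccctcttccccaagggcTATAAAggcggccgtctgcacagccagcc
Tnfsf15, chr4:63745060-63745309, minus strand: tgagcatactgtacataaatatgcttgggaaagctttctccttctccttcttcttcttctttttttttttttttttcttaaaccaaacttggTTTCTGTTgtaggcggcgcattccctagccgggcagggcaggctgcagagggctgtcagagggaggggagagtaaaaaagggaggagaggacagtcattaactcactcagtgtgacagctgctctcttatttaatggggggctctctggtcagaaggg
Tnfsf10, chr3:27316827-27317076, plus strand: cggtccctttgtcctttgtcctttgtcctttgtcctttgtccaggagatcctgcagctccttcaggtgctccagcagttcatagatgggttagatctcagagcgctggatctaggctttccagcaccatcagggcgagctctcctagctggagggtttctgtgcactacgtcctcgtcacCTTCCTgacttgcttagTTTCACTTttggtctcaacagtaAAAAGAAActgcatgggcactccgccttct

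The Tnf window held a TATA box at 29 to 24 bases before the start, a motif found in 12.4% of 32851 mouse promoter windows of this length, and ETS letters in 2 places. The Tnfsf15 window held 1 IRF match, at 158 to 151 bases before the start. The Tnfsf10 window held 2 IRF matches, at 53 to 46 and at 30 to 23 bases before the start, and 1 ETS match. These positions count from the RefSeq start. By GENCODE M21 the starts of Tnfsf10 and Tnfsf15 lie inside their windows. The last bases of these windows then fall within the gene, with the Tnfsf10 match at 30 to 23 and part of the match at 53 to 46. IRF letters stood in 21.3% and ETS letters in 29.5% of all windows, so either is common. Of the 4 windows of the other members, both of Tnfsf13b and those of Tnfsf8 and Tnfsf14 held ETS letters. IRF letters stood in 1 of Tnfsf13b and that of Tnfsf8, and AP-1 letters in 1 of Tnfsf13b and that of Tnfsf14. AP-1 letters stood in 6.75% of all windows. By GENCODE M21 the start of Tnfsf13b lies inside 1 of its windows, and all IRF and AP-1 letters there fall within the gene. The start of Tnfsf8 lies inside its window too, with the ETS match at 58 to 53 within the gene. None of the 6 members' windows held the NF-κB motif in the form searched, present in 4.11% of all windows, or STAT letters, present in 7.02%. Other forms of the NF-κB motif were not searched. A match here is a run of letters, and a missing match says only that these letters were not in this window.

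Levels are given as CPM, the read count on the gene's own strand scaled by the library's total, with the ribosomal precursor Rn45s left out of that total. Between 2378639 and 3357300 counts fell on genes in a sample, of which Rn45s made up 20.1% to 39.8%, so that 1502618 to 2532496 remained. A single count was therefore worth 0.395 to 0.666 CPM. Macrophage identity was checked on 7 listed markers, whose summed level was 24620 to 26470 CPM in control, 16320 to 17050, 12670 to 13790, 14830 to 17030 and 25990 to 29240 CPM at 1, 4, 12 and 24 h of IFN-LPS, 20860 to 24170 CPM with IL-4 or IL-13, and 7696 to 9679 CPM in RAW264.7, where Mertk was at 0. Among the BMDM groups the sum was thus lowest at 4 h of IFN-LPS, and its part in the ligand changes was not tested. The T cell genes Cd3e, Cd3g, Cd3d and Cd8a were at 0 in all 25 samples, while the 6 listed T cell genes summed to 1.84 to 15.3 CPM. The B cell list reached at most 1.92 CPM, the NK cell list 3.66 CPM and the mast cell and basophil list 4.63 CPM in any sample. Of the reads on Rn45s, 0.0386% to 0.122% were antisense in the 12 samples of control and IFN-LPS 1, 4 and 12 h but 0.00603% to 0.0214% in the 9 samples of IFN-LPS 24 h, IL-4 and IL-13. The comparisons of IL-4, IL-13 and 24 h with control, and of IFN-LPS 12 h with 24 h, IL-4 and IL-13, cross this difference between libraries, and its part in them was not tested.

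In BMDMs given IFN-LPS, 7 of the 9 ligands were higher than control at 4 h, 1 (Tnfsf12) was lower, and Tnfsf14 stayed too low to test. Fold changes come from edgeR's quasi-likelihood test with TMM scaling, fitted over all 9568 genes that passed its filter on low counts, and a gene was called where the adjusted p did not exceed 0.01 and the log2 fold change reached 1.5, up or down. Of 8 members tested, 5, 7, 5 and 5 were called higher at 1, 4, 12 and 24 h. Tnfsf4, Tnfsf8, Tnfsf9 and Tnfsf10 had 0 to 3 counts in the pooled control, Tnfsf15 had 10 and Tnfsf13b had 12. All of these passed the filter through IFN-LPS samples in which they were high. The counts of calls and the medians therefore describe the tested members and are no support for a rise of the family. Over all genes tested, 5.04%, 11.4%, 8.87% and 7.93% were called higher at those times. Tnfsf12 was called lower at 4, 12 and 24 h, against 11.4%, 8.42% and 6.93% of all genes (2.08% at 1 h, where no member was). In either direction 7.12%, 22.8%, 17.3% and 14.9% of all genes were called. The median log2 fold change of the 8 tested members was 3.90, 7.97, 4.07 and 3.09 at the 4 times, where the medians over all tested genes were -0.03, -0.07, -0.03 and 0.02. Tnfsf4 had no count in control. With Tnfsf4 set to its ratio against a floor of 3 pooled control counts, the members' medians were 3.16, 6.80 and 3.64 at 1, 4 and 12 h. With Tnfsf4 left out, the median was 3.77 at 24 h. Scaling by library size alone moved the median of all genes to -0.22, -0.61, -0.34 and -0.20 at the 4 times, so a plain CPM ratio and a TMM fold change differ by about this much.

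**Figure D1:**
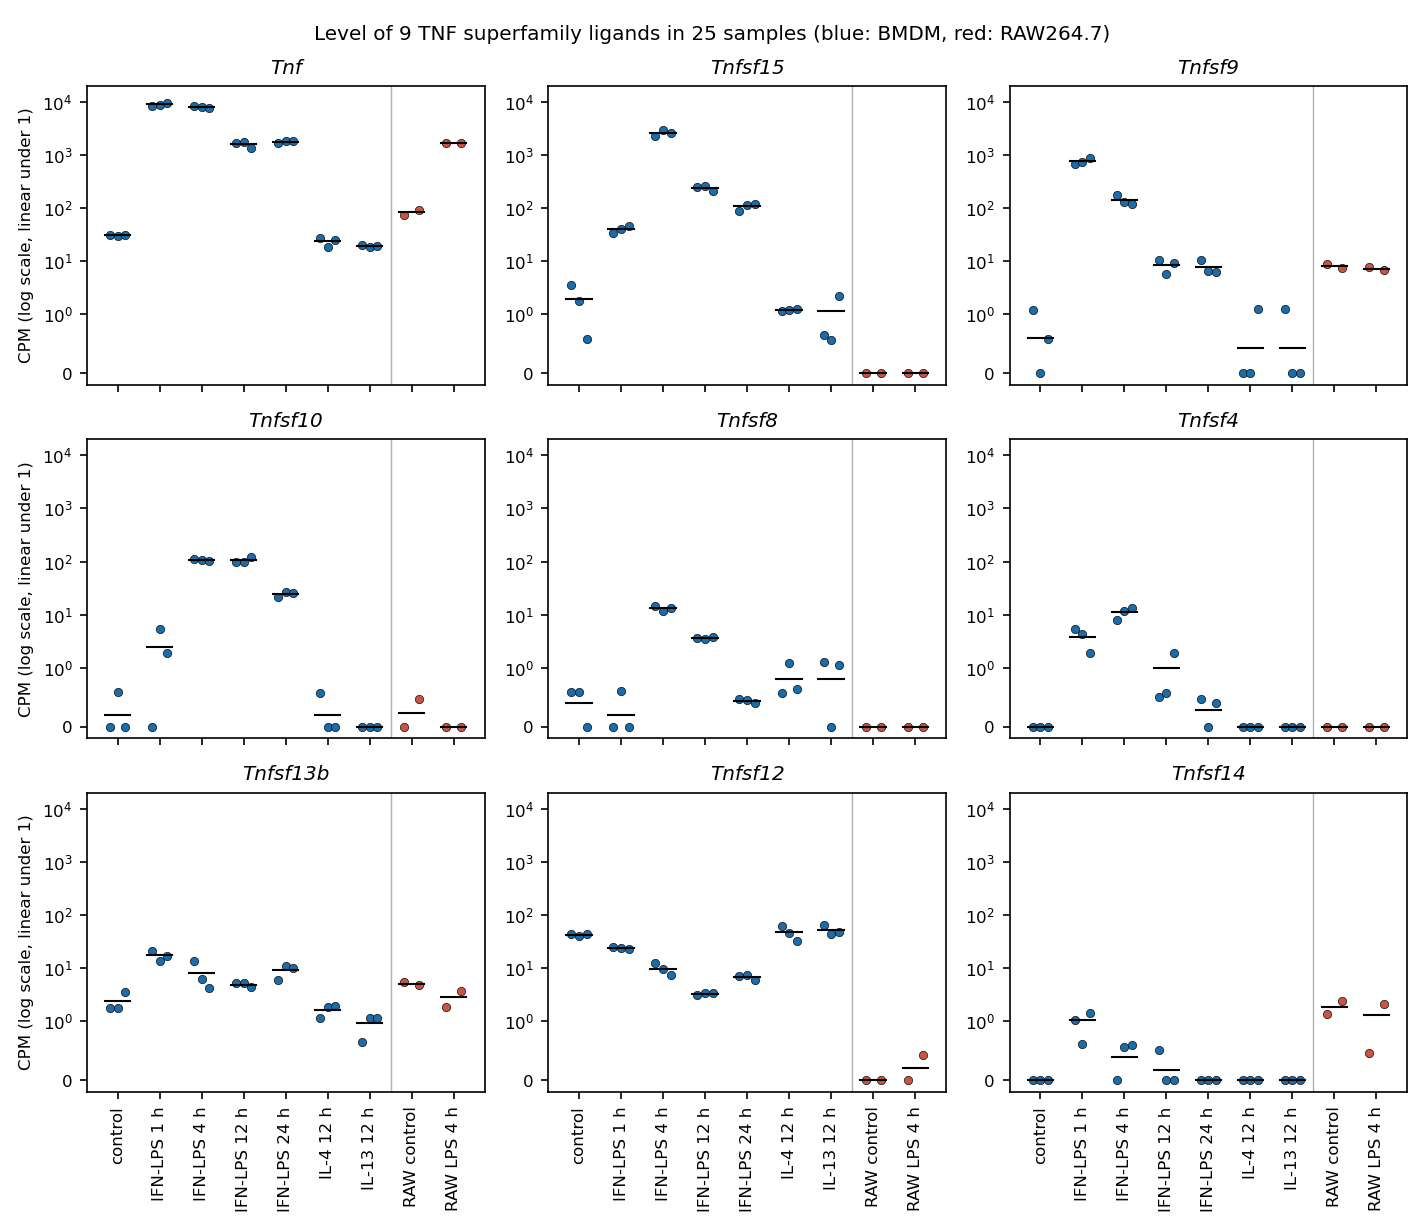
CPM of each ligand in each of the 25 samples (points) with the group mean (bar), on an axis that is logarithmic above 1 CPM and linear below it. Tnf reached 7594 to 9726 CPM at 1 and 4 h of IFN-LPS, Tnfsf15 2333 to 2950 CPM at 4 h, and Tnfsf12 was lower in every IFN-LPS sample than in every control sample.

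Tnf was present in every library and was the most abundant ligand under IFN-LPS. It stood at 31.5, 30.4 and 30.9 CPM in control, at 8505, 8708 and 9726 CPM at 1 h, and at 8381, 8126 and 7594 CPM at 4 h. At 12 h it was 1664, 1795 and 1384 CPM, and at 24 h 1721, 1816 and 1801 CPM. The groups of all 4 times lay far above control without overlap, 1 h lay above 4 h in CPM, both lay above 12 h and 24 h, and the ranges of 12 h and 24 h overlapped. Tnf rose by a log2 fold change of 8.37 (SE 0.13, adjusted p = 2.03e-43, edgeR) at 1 h and of 8.54 (SE 0.13, adjusted p = 9.77e-44, edgeR) at 4 h. It was still 6.01 (SE 0.12) above control on the log2 scale at 12 h and 6.07 (SE 0.12) at 24 h, and both were called. The change from 1 h to 4 h was 0.18 (SE 0.08, adjusted p = 0.073, edgeR), and its direction turned with the scaling, at -0.16 (adjusted p = 0.087, edgeR) under library size alone. From 4 h to 12 h Tnf fell by 2.54 on the log2 scale (SE 0.09), and from 12 h to 24 h the change was 0.06 (SE 0.08, adjusted p = 0.68, edgeR).

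Tnfsf9, the ligand of the T cell co-stimulatory receptor Tnfrsf9, was highest at 1 h, the first time sampled, and fell at both of the next steps. It had 2, 0 and 1 counts in control, and stood at 669.8, 725.1 and 895.4 CPM at 1 h. It was at 179, 131 and 119 CPM at 4 h, at 10.7, 5.71 and 9.15 CPM at 12 h, and at 10.7, 6.44 and 6.32 CPM at 24 h. Each step down to 12 h left the groups apart, and 12 h and 24 h overlapped while both stayed above control. With 3 counts in the pooled control the rise at 1 h was a 1304-fold ratio of pooled CPM with a 95% counting interval of 446 to 6324, and the call had an adjusted p of 1.41e-25 (edgeR). Intervals of this kind cover counting error only. Tnfsf9 fell by 2.09 on the log2 scale from 1 h to 4 h (SE 0.13, adjusted p = 1.50e-15, edgeR) and by a further 4.25 from 4 h to 12 h (SE 0.21, adjusted p = 9.23e-18, edgeR). It remained called above control at 12 h, at a ratio of 14.6 (interval 4.73 to 73.3), and at 24 h, at 13.1 (interval 4.24 to 65.5).

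Tnfsf13b was likewise highest at 1 h, at a lower level. It was 1.78, 1.79 and 3.49 CPM in control, 21.3, 13.3 and 17.1 CPM at 1 h, 13.3, 6.12 and 4.21 CPM at 4 h, 5.11, 5.14 and 4.33 CPM at 12 h and 6.05, 11.0 and 9.87 CPM at 24 h. Every IFN-LPS sample lay above every control sample, and 4 h overlapped 12 h and 24 h. It rose by 3.02 on the log2 scale at 1 h (SE 0.39, adjusted p = 8.42e-09, edgeR), by 2.19 at 4 h (SE 0.47) and by 2.12 at 24 h (SE 0.43). At 12 h the value was 1.31 (SE 0.51, adjusted p = 0.024, edgeR), which was not called, and no step between neighbouring times was called for Tnfsf13b.

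Tnfsf14, which shares Tnfrsf14 with other ligands, was at the limit of detection. It had 2, 1 and 3 counts at 1 h, 0, 1 and 1 at 4 h, 1, 0 and 0 at 12 h and none in the control, 24 h, IL-4 or IL-13 samples. Against a floor of 3 counts over the control group, its observed 1 h level was 1.80-fold higher (counting interval from 1.06), without a test. Of the BMDM groups it was highest at 1 h, and it passed the filter in no fit.

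Tnfsf15 (TL1A) had the largest rise of any member at 4 h by fitted fold change. In control it was 3.57, 1.79 and 0.58 CPM, then 34.0, 40.5 and 46.6 CPM at 1 h, and 2333, 2950 and 2601 CPM at 4 h. It then stood at 253.4, 261.5 and 210.3 CPM at 12 h and at 90.3, 115.4 and 118.1 CPM at 24 h. No 2 of these 5 groups overlapped, and the order was 4 h, 12 h, 24 h, 1 h and control. The log2 fold change was 4.50 at 1 h (SE 0.32, adjusted p = 5.28e-15, edgeR) and 10.85 at 4 h (SE 0.21, adjusted p = 1.36e-34, edgeR), against 10 counts in the pooled control. It was 7.19 at 12 h (SE 0.24) and 5.95 at 24 h (SE 0.26), both called. Tnfsf15 rose by 6.36 from 1 h to 4 h (SE 0.14), fell by 3.67 from 4 h to 12 h (SE 0.12), and its difference of -1.24 from 12 h to 24 h (SE 0.12, adjusted p = 1.60e-10, edgeR) was below the fold cutoff.

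Tnfsf10 came up later than Tnf and kept its level longer than Tnfsf15. It had 0, 1 and 0 counts in control and 0, 9 and 4 counts at 1 h. It reached 109.8, 107.4 and 103.5 CPM at 4 h, 99.1, 97.6 and 119.8 CPM at 12 h and 21.4, 27.1 and 25.7 CPM at 24 h. The 4 h and 12 h groups overlapped, and 24 h lay below both and above 1 h. At 1 h the change was not called (adjusted p = 0.011, edgeR), and it was called without IFN-LPS 1 h replicate 1, the sample with no count, and without the low-count filter. Over all alternatives its adjusted p ran from 0.00081 to 0.19 (edgeR or DESeq2). Against the single control count the pooled ratio was 543 at 4 h (95% counting interval 97.0 to 21470), 539 at 12 h (96.4 to 21320) and 126 at 24 h (22.3 to 5002), all 3 called. The difference between 12 h and 4 h was -0.23 (SE 0.14, adjusted p = 0.18, edgeR), and Tnfsf10 fell by 2.18 from 12 h to 24 h (SE 0.17, adjusted p = 1.85e-13, edgeR).

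Tnfsf8 (CD30 ligand) and Tnfsf4 (OX40 ligand) appeared at low levels with a peak at 4 h. Tnfsf8 had 1, 1 and 0 counts in control, 0, 1 and 0 at 1 h, 22, 21 and 22 at 4 h, 7, 6 and 8 at 12 h and 1, 1 and 1 at 24 h. Its pooled ratio to control was 33.3 at 4 h (95% counting interval 8.85 to 280.5) and 9.22 at 12 h (2.25 to 81.1), and it was called at these times and not at 1 h or 24 h. Tnfsf4 had no count in control, 10, 7 and 4 counts at 1 h, 12, 21 and 22 at 4 h, 1, 1 and 4 at 12 h and 1, 0 and 1 at 24 h. Against the floor of 3 counts over the control group its observed level was 6.30-fold higher at 1 h and 18.8-fold higher at 4 h, and both were called. The 95% counting intervals began at 4.69 and 14.8. At 12 h, 1.76-fold higher against the floor (interval from 1.03), Tnfsf4 was not called (adjusted p = 0.015, edgeR). Tnfsf4 rose by 1.89 on the log2 scale from 1 h to 4 h (SE 0.39), when Tnfsf8 went from 1 pooled count to 65, and from 4 h to 12 h Tnfsf4 fell by 3.56 (SE 0.50) and Tnfsf8 fell by 2.05 (SE 0.35). From 12 h to 24 h Tnfsf8 fell to 3 pooled counts, a ratio of 0.12 (95% counting interval 0.023 to 0.404, adjusted p = 0.00067, edgeR).

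Tnfsf12 was the only tested member that fell. Control samples had 42.8, 39.3 and 43.1 CPM, followed by 24.5, 23.6 and 22.4 CPM at 1 h, 12.6, 9.46 and 7.22 CPM at 4 h, 3.07, 3.43 and 3.37 CPM at 12 h and 6.98, 7.36 and 5.92 CPM at 24 h. Each group lay below control without overlap, 12 h was lowest, 24 h stood above 12 h without a call (0.93, adjusted p = 0.055, edgeR), and 4 h and 24 h overlapped. The log2 difference was -0.64 at 1 h (SE 0.17, adjusted p = 0.0023, edgeR), under the fold cutoff. It fell by 1.58 at 4 h (SE 0.21), by 3.34 at 12 h (SE 0.26) and by 2.40 at 24 h (SE 0.21). The 4 h value was -1.38 without IFN-LPS 4 h replicate 3, the lowest sample, and then missed the fold cutoff. Of the 1515 exon bases of Tnfsf12 on chromosome 11, 731 (48.3%) are shared on the same strand with the readthrough gene Tnfsfm13, which had 0 counts in all 25 samples. A read that lies in exons of both cannot be assigned to either, so the level of Tnfsf12 is uncertain.

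**Figure D2:**
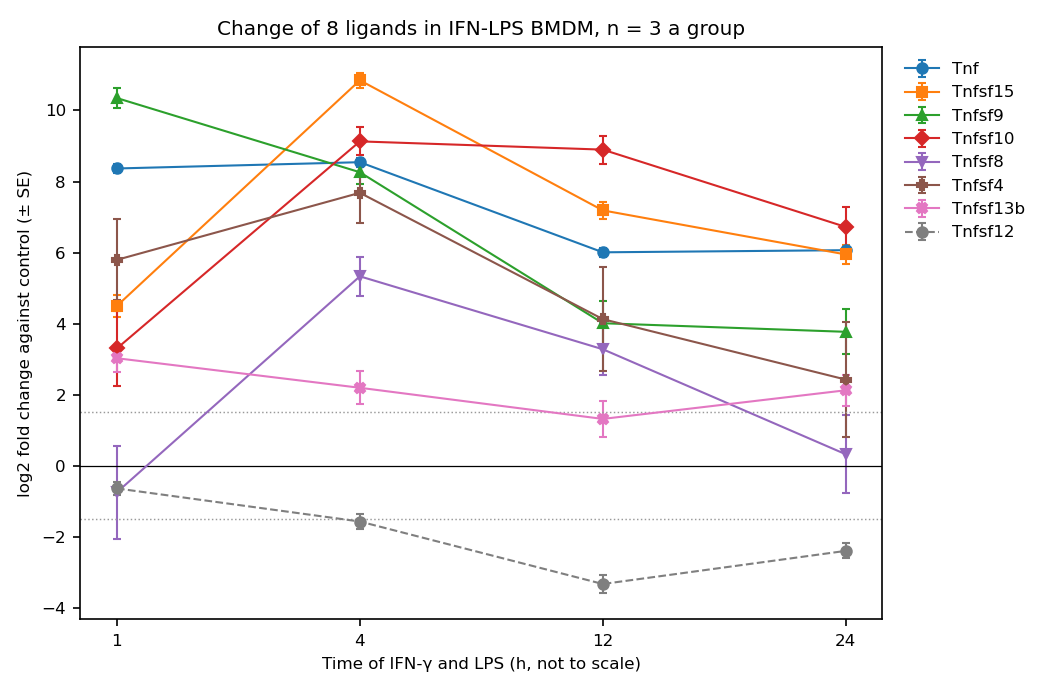
Fitted log2 fold change against control (points, with SE bars) of the 8 tested ligands at 1, 4, 12 and 24 h of IFN-LPS, with dotted lines at the fold cutoff of 1.5. Tnfsf9 starts highest at 10.35, Tnfsf15 peaks at 10.85 at 4 h and Tnfsf12 lies below 0 throughout; fitted values of Tnfsf4, Tnfsf8, Tnfsf9 and Tnfsf10 rest on 0 to 3 control counts and depend on the prior count.

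By step, 4 of 8 tested members rose and 1 fell from 1 h to 4 h, beside 7.07% and 6.95% of all genes (14% in either direction). From 4 h to 12 h 6 fell (Tnf, Tnfsf4, Tnfsf8, Tnfsf9, Tnfsf12 and Tnfsf15), beside 4.45% of all genes, and none rose (5.2%, and 9.66% in either direction). From 12 h to 24 h Tnfsf8 and Tnfsf10 fell, beside 0.867% of all genes, and none rose (0.418%, and 1.29% in either direction). The median of the tested members was 1.03, -2.30 and -0.74 over these steps, and that of all genes was -0.03, 0.02 and 0.03. By mean CPM within the time course, 4 members were highest at 1 h (Tnf, Tnfsf9, Tnfsf13b and Tnfsf14), 4 at 4 h (Tnfsf4, Tnfsf8, Tnfsf10 and Tnfsf15) and Tnfsf12 in control. At 1 h the summed level of the 6 dendritic cell markers was 45.7 to 50.8 CPM, against 0.58 to 1.79 CPM in control and 10.6 to 14.0 CPM at 4 h, with Flt3, Siglech and Cd209a at 0, and its part in the 1 h ligand levels was not tested. The 4 fibroblast markers summed to 46.8 to 112.9 CPM over the 5 groups of the time course, the 7 neutrophil markers to 14.9 to 40.9 CPM and the 3 endothelial markers to 12.1 to 49.6 CPM.

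Between genes, levels were compared as CPM per kb of exon. In control BMDMs, Tnfsf12 made up 57.5% ± 1.14 (SD, n = 3) and Tnf 39.4% ± 1.15 of the summed level of the 9 ligands, which was 47.95 ± 2.20 CPM per kb. After 1 h of IFN-LPS the sum was 6104 ± 490.3 CPM per kb, with 89.8% ± 0.66 from Tnf and 9.66% ± 0.70 from Tnfsf9. At 4 h the sum was 5835 ± 256.6 CPM per kb, with 84.0% ± 1.26 from Tnf and 13.5% ± 1.63 from Tnfsf15. Tnfsf12 thus led in control and Tnf from 1 h on, with Tnfsf9 next at 1 h and Tnfsf15 next at 4, 12 and 24 h. By 24 h Tnf held 95.7% ± 0.17 of 1135 ± 34.5 CPM per kb, and Tnfsf12 0.39% ± 0.05. With IL-4 and IL-13 the share of Tnfsf12 was 65.7% ± 9.06 and 72.7% ± 2.77, of 46.7 ± 10.3 and 47.4 ± 8.62 CPM per kb. Because of the shared exons, all shares of Tnfsf12 carry the uncertainty given for its level.

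**Figure D3:**
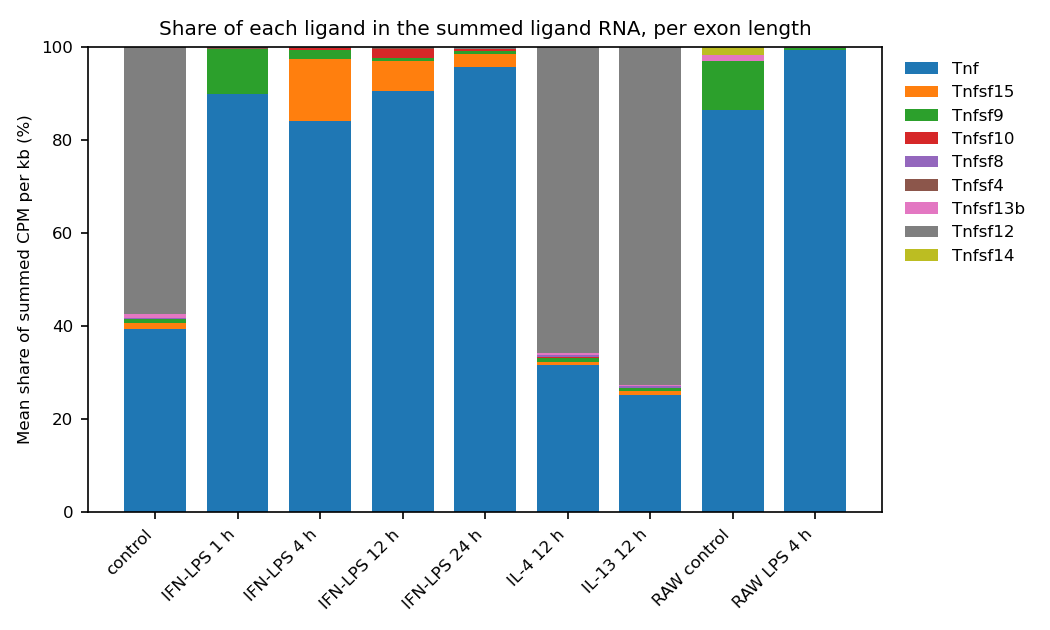
Mean share (%) of each ligand in the summed CPM per kb of exon of the 9 ligands, stacked for each group. Tnfsf12 holds 57.5% in control, 65.7% with IL-4 and 72.7% with IL-13, and Tnf holds 84.0% to 95.7% in the IFN-LPS groups and 99.3% in RAW264.7 with LPS.

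IL-4 and IL-13, the cytokines of alternative activation, left most ligands at a level too low to test. In the fit of control, IL-4 and IL-13 (9252 genes tested, with a fold cutoff of 0.7 on the log2 scale), only Tnf and Tnfsf12 passed the filter. With IL-4 0 of the 2 were called by edgeR and 0 by DESeq2, and 1 (Tnf) had an unadjusted p below 0.05 (edgeR), beside 2.22% of all genes called higher, 1.64% lower and 3.86% in either direction. With IL-13 Tnf was called lower, beside 2.38% of all genes (2.98% higher, 5.36% in either direction). Tnf was 27.2, 18.3 and 25.6 CPM with IL-4 and 19.9, 18.8 and 19.1 CPM with IL-13, all below the control range, while IL-4 and IL-13 overlapped. The log2 fold change of Tnf was -0.39 with IL-4 (SE 0.19, adjusted p = 0.19, edgeR) and -0.72 with IL-13 (SE 0.19, adjusted p = 0.0057, edgeR). That call lies at the cutoffs, since the adjusted p was 0.051 with DESeq2 and the fold change was -0.68 with library size only. Over all alternatives the adjusted p ran from 0.0060 to 0.051 (edgeR or DESeq2). The call was also lost, at adjusted p of 0.015 to 0.026 (edgeR), without control replicate 1, 2 or 3 and without IL-13 replicate 2 or 3.

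Tnfsf12 was 62.0, 46.3 and 32.7 CPM with IL-4 and 65.5, 43.3 and 48.4 CPM with IL-13, at a log2 fold change of 0.18 (SE 0.17) and 0.28 (SE 0.17), neither called, although all 3 IL-13 samples lay above the control range. IL-13 and IL-4 did not differ by a called amount in Tnf (-0.34, SE 0.21, adjusted p = 0.82, edgeR) or Tnfsf12 (0.10, SE 0.17, adjusted p = 0.96, edgeR), beside 0.054% and 0.0108% of all genes called higher and lower (0.0649% in all). Neither had an unadjusted p below 0.05 (edgeR), and DESeq2 called 0 of the 2. Of the other members, Tnfsf4 and Tnfsf14 had no count in any IL-4 or IL-13 sample. The other 5 had at most 4 counts in each of these 6 samples.

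At 12 h, where the stimuli can be compared at a matched time, IFN-LPS exceeded both IL-4 and IL-13 for 6 of 8 tested members (Tnf, Tnfsf8, Tnfsf9, Tnfsf10, Tnfsf13b and Tnfsf15), and Tnfsf12 was lower. All tested members but Tnf and Tnfsf12 had few or no counts with IL-4 and IL-13. They passed the filter through IFN-LPS samples in which they were high. The count of calls therefore describes the tested members and is no support for a difference of the family. The IFN-LPS 12 h libraries had 0.0827% to 0.122% of Rn45s reads antisense and those of IL-4 and IL-13 0.00603% to 0.0214%, and the part of this difference was not tested. Of all 9841 genes tested, 8.99% were called higher and 7.46% lower than with IL-4, and 8.95% and 7.55% than with IL-13 (16.5% in either direction in both). Library size alone moved the median of all genes to -0.37 against IL-4 and -0.40 against IL-13. Tnf differed by 6.43 on the log2 scale from IL-4 (SE 0.12) and by 6.75 from IL-13 (SE 0.13). Tnfsf15 differed by 7.89 (SE 0.25) and 7.96 (SE 0.24), and Tnfsf12 by -3.47 (SE 0.28) and -3.59 (SE 0.27). Tnfsf10 had no count with IL-13. Against a floor of 3 counts over the IL-13 group, its observed level with IFN-LPS was 180.0-fold higher (counting interval from 145.9). The smaller calls were those of Tnfsf13b, at 1.88 (SE 0.54) and 2.58 (SE 0.59), and of Tnfsf8, at 2.41 (SE 0.66) and 2.47 (SE 0.66). With only the groups compared in the fit, 4 members were called against IL-4 in place of 7, since Tnfsf8, Tnfsf9 and Tnfsf13b no longer passed the low-count filter. Tnfsf13b against IL-4 was lost with library size only (1.54, adjusted p = 0.014, edgeR), and without IL-4 replicate 1 (1.67, adjusted p = 0.018, edgeR), as was Tnfsf8 (2.21, adjusted p = 0.011, edgeR). Tnfsf8 against IL-13 was lost without IL-13 replicate 2 (1.91, adjusted p = 0.015, edgeR).

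In RAW264.7 cells Tnf rose with LPS, and the other members stayed low. Only Tnf, Tnfsf9 and Tnfsf13b passed the filter (9406 genes tested, with a log2 cutoff of 2), and 1 of the 3 was called higher, beside 2.39% of all genes (0.829% lower, 3.22% in either direction). Library size alone moved the median of all genes to -0.18. Tnf was 75.7 and 94.1 CPM in untreated cells and 1657 and 1692 CPM after LPS, with no overlap, a rise of 4.48 on the log2 scale (SE 0.09). With 1 sample left out the rise was 4.32 to 4.67. Its p was too small for edgeR to represent. With 2 samples a group, that p and the SE rest on a spread shared across the genes of the fit. Tnfsf9 was 8.72 and 7.49 CPM before and 7.90 and 6.69 CPM after LPS, which overlap (0.02, SE 0.37, adjusted p = 0.97, edgeR). Tnfsf13b was 5.51 and 4.68 CPM before and 1.86 and 3.76 CPM after LPS, lower without overlap but not called (-0.65, SE 0.50, adjusted p = 0.32, edgeR). Tnfsf14 had 3 and 5 counts before and 1 and 5 after LPS, and Tnfsf10 1 count in the 4 samples. Tnfsf4, Tnfsf8 and Tnfsf15 had none, which allows up to 0.695 CPM in untreated and 0.660 CPM in LPS-treated cells, and Tnfsf12 had 1 count after LPS. With 2 samples a group, changes of less than the cutoff are not well resolved.

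Untreated RAW264.7 cells differed from control BMDMs in Tnfsf9 and Tnfsf12, and on few counts in Tnfsf15 (10269 genes tested, with a log2 cutoff of 2). Of the 8 members that passed the filter in this fit, Tnfsf4 had no count in either group, Tnfsf10 had 1 in each and Tnfsf8 had 0 and 2, so these 3 passed through IFN-LPS samples and could not be compared here. Tnfsf15, with 0 counts in RAW264.7 and 10 in control, also passed through IFN-LPS samples in which it was high. Tnfsf9 was called higher, beside 9.85% of all genes, with a pooled ratio of 13.7 to the 3 control counts (95% counting interval 4.33 to 69.8). Against a floor of 3 counts over the RAW264.7 group, Tnfsf12 was 60.1-fold lower and Tnfsf15 2.83-fold lower. Both were called, beside 12.7% of all genes (22.6% in either direction). The 95% counting interval of the pooled ratio reached up to 0.021 for Tnfsf12 and 0.525 for Tnfsf15. Library size alone moved the median of all genes to 0.22. Tnf was 1.17 higher on the log2 scale (SE 0.15, adjusted p = 2.00e-12, edgeR), under the cutoff. Tnfsf14 was 3.14-fold higher by pooled counts against a floor of 3 counts in control (95% counting interval from 2.01), without a test. Culture medium differs between the cell types, and so does the M-CSF treatment, and these cannot be told apart from the cells.

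The change with LPS in RAW264.7 was smaller than the change with IFN-LPS in BMDMs at 4 h for 4 of 8 tested members, by the interaction term over the 10 samples. Among all genes, the term (RAW264.7 change minus BMDM change) was called negative in 5.04% and positive in 3.68% (8.73% in all). These shares go by the sign of the term, not by the size of either change. Library size alone moved the median of all genes to 0.47. The difference was -4.15 for Tnf (SE 0.17, adjusted p = 8.94e-52, edgeR) and -8.35 for Tnfsf9 (SE 0.63, adjusted p = 7.25e-25, edgeR), both on the log2 scale. It was -2.92 for Tnfsf13b (SE 0.72, adjusted p = 0.00042, edgeR) and -11.19 for Tnfsf10 (SE 3.19, adjusted p = 0.0026, edgeR), where RAW264.7 had 1 count in 4 samples. Tnfsf10, like Tnfsf4, Tnfsf8 and Tnfsf15, passed the filter through IFN-LPS samples in which it was high. With each of the 10 samples left out, only 9 fits gave Tnfsf10 a usable error (-13.19 to -10.73), and only 8 gave Tnfsf13b one (-3.50 to -2.56). Tnfsf4, Tnfsf8 and Tnfsf15 had 0 counts in RAW264.7, so the interaction has no usable error for them. The stimuli differ by IFN-γ as well as by cell type, and these cannot be told apart.

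**Figure D4:**
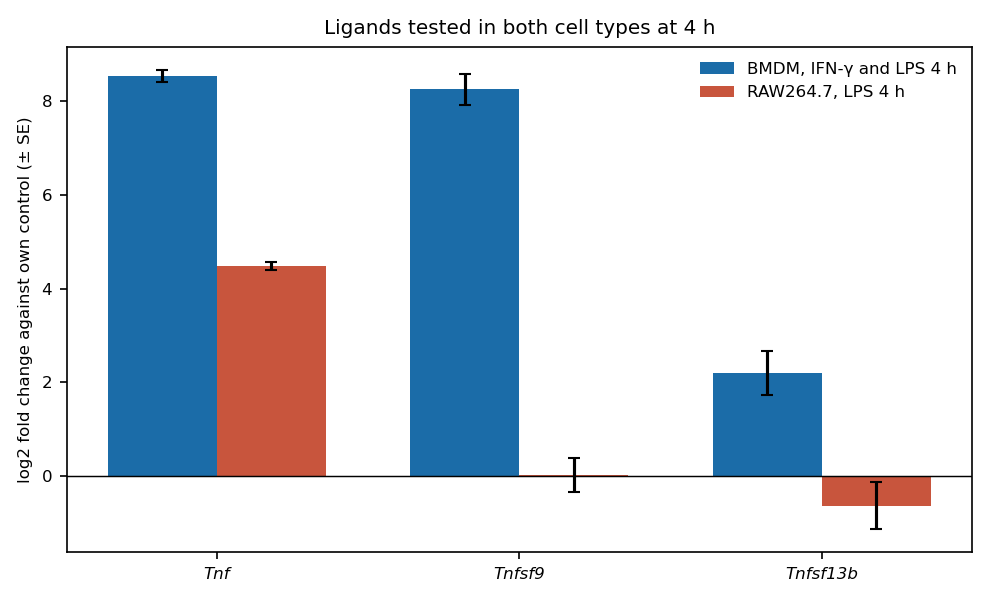
Log2 fold change against the untreated cells of the same type (bars, with SE) at 4 h, for the 3 ligands tested in both cell types, with IFN-γ and LPS in BMDMs (n = 3 a group) and LPS alone in RAW264.7 (n = 2 a group). Tnf changed by 8.54 and 4.48, and the RAW264.7 bars of Tnfsf9 (0.02) and Tnfsf13b (-0.65) were not called.

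Of the 16 receptors of these ligands, 6 were tested in the time course, and 1, 2, 2 and 2 of them were called higher at 1, 4, 12 and 24 h, none lower, beside 5.04%, 11.4%, 8.87% and 7.93% of all genes called higher and 2.08%, 11.4%, 8.42% and 6.93% lower. Their median log2 fold change was 0.28, 0.73, 0.48 and 0.29 at these times. Tnfrsf1b, the TNF receptor without a death domain, had a mean of 579.5 CPM in control and of 1030, 2061, 3099 and 2436 CPM at 1, 4, 12 and 24 h, and rose by 2.35 on the log2 scale at 4 h (SE 0.09) and by 2.73 at 12 h (SE 0.09). Tnfrsf14, the receptor of Tnfsf14, was 14.0 CPM in control and 43.0, 44.4, 92.5 and 102.7 CPM at these times, and rose by 1.81 at 1 h (SE 0.20) and by 3.09 at 24 h (SE 0.17). Tnfrsf1a, the TNF receptor with a death domain, stayed within 163 to 266.7 CPM, at 1.02 (SE 0.11) at 4 h, under the cutoff.

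Ltbr, a receptor of Tnfsf14 and lymphotoxins, ranged from 54.1 to 90.7 CPM, Tnfrsf12a, the receptor of Tnfsf12, from 11.5 to 26.2 CPM, and Tnfrsf23, a decoy receptor of Tnfsf10, from 5.86 to 16.0 CPM in the time course, none called. Tnfrsf10b, the death receptor of Tnfsf10, stayed at 1.36 to 3.15 CPM there, and Tnfrsf22, another decoy, at 0.96 to 5.32 CPM. Receptors of the T cell ligands were scarce: Tnfrsf9 reached 2.09 CPM, Tnfrsf4 0.99 CPM and Tnfrsf8 5.59 CPM, and Tnfrsf25, the receptor of Tnfsf15, had 1 count in the 15 samples. Of the BAFF receptors, Tnfrsf13b was 2.65 to 5.32 CPM, Tnfrsf17 had 1 count and Tnfrsf13c none. Tnfrsf11b, the soluble decoy osteoprotegerin, stayed at 2.42 to 5.51 CPM under IFN-LPS. It was 2.57 CPM in control, 8.95 CPM with IL-4 and 14.8 CPM with IL-13, and rose by 1.77 (SE 0.42) and 2.47 (SE 0.38) on the log2 scale, the 1 receptor of 8 tested that was called with each cytokine, beside 2.22% and 2.98% of all genes higher.

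In RAW264.7, Tnfrsf1b went from 22.9 to 313 CPM with LPS (3.95, SE 0.13) and Tnfrsf9 from 0.92 to 11.6 CPM (3.75, SE 0.53), both called, out of 8 receptors tested, beside 2.39% of all genes higher. Untreated RAW264.7 had 4.93 less Tnfrsf1b than control BMDMs on the log2 scale (SE 0.14). The change of Tnfrsf14 at 4 h was smaller in RAW264.7 than in BMDMs by 2.97 on the log2 scale (SE 0.56, adjusted p = 2.79e-06, edgeR). It was -0.71 in RAW264.7 itself (SE 0.50), which was not called.

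**Figure D5:**
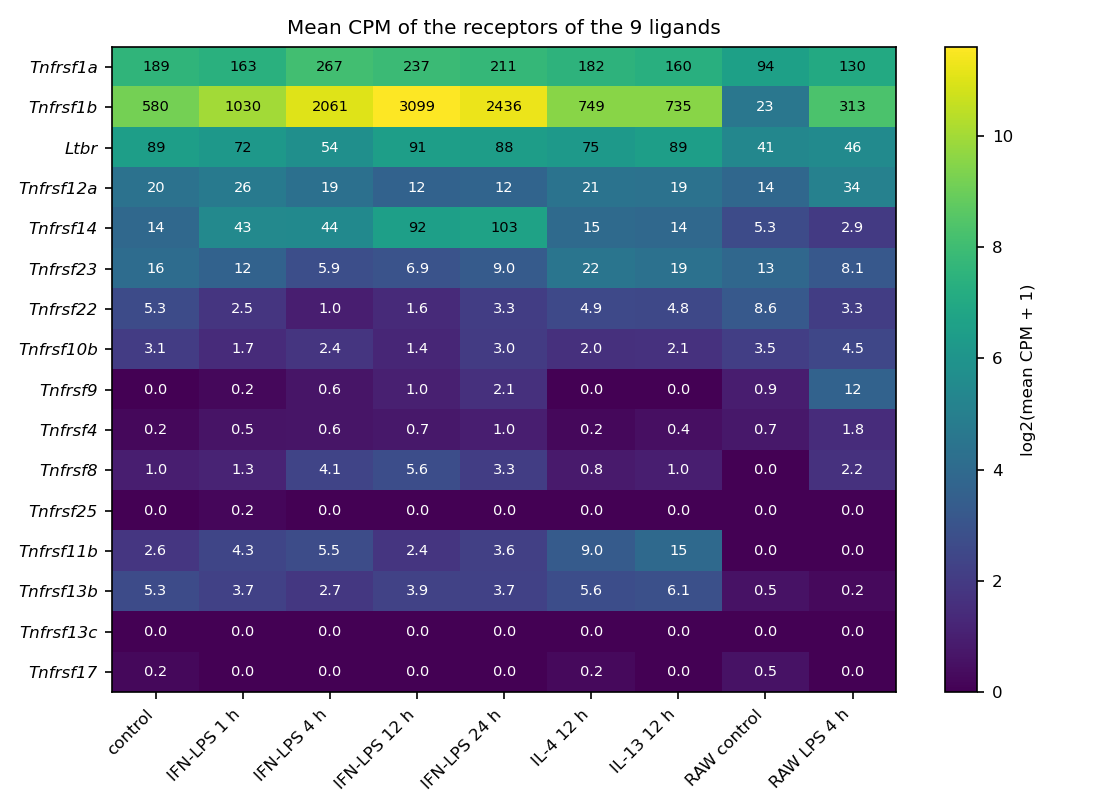
Mean CPM in each group (numbers) of the 16 receptors of the 9 ligands, coloured by log2(mean CPM + 1). Tnfrsf1b is the highest row in every BMDM group, at 579.5 to 3099 CPM, and the receptors of the T cell ligands stay at or below 5.59 CPM in BMDMs.

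Of the 9 other ligands of the superfamily, none passed the filter in the time course, and Tnfsf13 and Ltb reached a group mean of 5 CPM. Tnfsf13 (APRIL), at chr11:69682846-69685784 beside Tnfsf12, was 6.30 CPM in control, 4.03, 2.81, 0.53 and 0.88 CPM at 1, 4, 12 and 24 h of IFN-LPS, and 9.26 and 8.63 CPM with IL-4 and IL-13. The readthrough gene Tnfsfm13 (chr11:69682577-69696098) spans Tnfsf13 too, on the same strand. The exon bases they share were not measured, so the level of Tnfsf13 is uncertain as well. At 12 h it had 3 pooled counts with IFN-LPS against 46 with IL-4 and 43 with IL-13, ratios of 0.056 (95% counting interval 0.011 to 0.173) and 0.061 (0.012 to 0.192), and both were called. Ltb, a lymphotoxin subunit, had at most 2 counts in any BMDM group but stood at 13.3 and 12.6 CPM in untreated RAW264.7 and at 33.4 and 37.2 CPM after LPS (1.62, not called). Lta lies 1.16 kb from Tnf on chromosome 17, yet its highest group mean was 2.91 CPM, at 12 h. Tnfsf18, 76.2 kb from Tnfsf4 on chromosome 1, had 5 counts at 4 h as its highest group total.

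All 24 listed genes of receptor signalling were tested in the time course, and 3, 8, 6 and 5 were called higher at 1, 4, 12 and 24 h, with 1 lower at 4 h, beside 5.04%, 11.4%, 8.87% and 7.93% of all genes called higher and 11.4% lower at 4 h. The median log2 fold change was 0.25, 0.69, 0.43 and 0.42. Those called at 1 h were Traf1, Cflar and Birc3, and at 24 h Traf1, Traf2, Cflar, Birc3 and Rnf31. The largest at 4 h were Traf1, an adaptor of TNF receptors (8.27, SE 0.19), which went from 1.98 to 439.5 CPM, and Cflar, an inhibitor of caspase-8 activation (4.49, SE 0.10), which went from 95.7 to 1489 CPM. Ikbkb, a kinase of the NF-κB pathway, had the smallest called rise (1.66, SE 0.12). The 1 that fell was Map3k14, the kinase of the noncanonical pathway, by 1.91 (SE 0.44), from 12.2 to 2.22 CPM. With IL-4 and with IL-13, 1 of 23 was called higher, the adaptor Traf5 (1.52, SE 0.28, and 1.86, SE 0.27), and none lower, beside 2.22% and 2.98% of all genes called higher. With LPS in RAW264.7, Traf1 (4.19, SE 0.14) was the 1 of 24 called, beside 2.39% of all genes called higher.

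Of 8 listed genes of release and shedding, 7 were tested in the time course, and 1, 2, 2 and 2 were called higher and 0, 0, 1 and 1 lower at 1, 4, 12 and 24 h. Over all genes 5.04%, 11.4%, 8.87% and 7.93% were higher and 2.08%, 11.4%, 8.42% and 6.93% lower. The median log2 fold change was 0.44, 0.70, 0.24 and -0.02. At 4 h the 2 called were Rhbdf2, which brings the TNF-cutting protease Adam17 to the cell surface (3.19, SE 0.14; 41.5 to 264.9 CPM), and Sppl2a, a protease that cuts the membrane stub of Tnf (1.87, SE 0.09; 267.6 to 679 CPM). The 1 that fell was Timp3, an inhibitor of Adam17, from 66.3 CPM in control to 18.5 CPM at 12 h and 12.8 CPM at 24 h (-1.56, SE 0.20, and -2.14, SE 0.21). With IL-13 1 of 7 was called, Rhbdf2 (0.87, SE 0.15), and with IL-4 none, beside 2.98% and 2.22% of all genes higher. In RAW264.7 with LPS 2 of 6 were called, beside 2.39%, Rhbdf2 (2.33, SE 0.14) and Furin (2.88, SE 0.11).

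Across the 9 group means of log2 CPM, the genes most like each ligand were sought among 10679 genes with a mean of at least 5 CPM in some group. These correlations are descriptions over 9 points that share the same control and differ in depth. For Tnf they were Nfkbia, the NF-κB inhibitor (r = 0.995), and Pde4b (r = 0.994). For Tnfsf9 they were H3f3b (r = 0.975) and Med21 (r = 0.952), and for Tnfsf13b Ankrd33b (r = 0.921) and Lrrc63 (r = 0.906). For Tnfsf15 they were Tmem67 (r = 0.984) and Tspan33 (r = 0.983), and for Tnfsf10 Cd247 (r = 0.993) and Apobec3 (r = 0.993). For Tnfsf4 they were Tmem200b (r = 0.987) and Nr4a3 (r = 0.985), for Tnfsf8 Lhx2 (r = 0.981) and Pou3f1 (r = 0.969), and for Tnfsf12 Gab1 (r = 0.997) and Mcoln3 (r = 0.993). Among the members themselves, Tnfsf10 and Tnfsf15 were most alike (r = 0.942), then Tnfsf9 and Tnfsf13b (r = 0.883), and Tnf and Tnfsf12 had r = -0.364.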

How the data were processed

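The authors trimmed the paired 101-cycle reads of rRNA-depleted, strand-specific libraries with Trimmomatic 0.33, aligned them to mm10 with STAR 2.5.1 and deposited raw read counts per gene, unstranded and by strand, without normalization (versions per the labels and the submitters' processing notes). The annotation release is not given in the sources used here. Sense-strand counts were taken, which totalled 93.9 to 158 times the antisense counts. Of the uniquely aligned reads, 62.7% to 69.1% lay in no annotated gene on that strand and stayed out of totals and tests. The labels also name polyA RNA, although their protocol removes rRNA. Rn45s was left out of all totals, and the symbols were placed on GRCm38 with GENCODE M21.

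The counts were fitted in R 4.3.3 with edgeR 4.0.16 (filterByExpr, TMM, robust quasi-likelihood, 1 mean per group, Benjamini-Hochberg adjustment per comparison over all genes tested): the 15 samples of control and IFN-LPS, the 9 of control, IL-4 and IL-13, all 21 BMDM samples, the 4 of RAW264.7, and the 10 of control and 4 h in both cell types. Each SE was obtained by dividing the size of the log2 fold change by the root of the F statistic. Alternatives were DESeq2 1.42.0, library size only, no low-count filter, unstranded counts, Rn45s kept, the replicate number as a block, only the groups compared, and each sample left out. The scripts were tested on simulated data. Tables and figures used Python 3.11.15 and matplotlib 3.10.9.

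The 9 members, the gene lists and the cutoffs were chosen with earlier results of these data known. Beside the members, the text names all of their receptors, other ligands with a group mean of at least 5 CPM, from each remaining list the genes with the 2 largest and 2 smallest log2 fold changes, sign included, among those called at 4 h of IFN-LPS, and the 2 genes most like each member. Genes named outside this rule (Lta, Tnfsf18, Birc3, Traf2, Traf5, Rnf31, Timp3 and Furin) were chosen after their values were seen. The study states that replicates were independent RNA samples; whether they came from separate mice is not given, so p-values measure the spread between these samples. No pair of replicates agreed within sampling noise (chi-square per degree of freedom 1.33 to 4.93 over 23 pairs). BMDMs given LPS alone were not analysed here.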

Additional observations from a re-analysis of the deposited data

Results flagged for a closer look

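The change of 4 ligands at 4 h differed between the cell types by the interaction term (change with LPS in RAW264.7 minus change with IFN-γ and LPS in BMDMs, log2 scale, edgeR). The difference was -4.15 for Tnf, which was raised in both. It was -8.35 for Tnfsf9, which stayed at 6.69 to 8.72 CPM in the 4 RAW264.7 samples. It was -11.19 for Tnfsf10, with 1 count in the 4 RAW264.7 samples and 1 count in control BMDMs, so its size rests on the prior count. It was -2.92 for Tnfsf13b. IFN-γ was present in the BMDM samples only, so the stimulus and the cell type cannot be told apart.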

How the results depend on the processing

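The counts of members called kept within 1.5 times the main count in 12 of the 15 comparisons under all alternatives run. With only the groups compared in the fit, 1 member was called between 24 h and 12 h (2 before) and 4 between IFN-LPS and IL-4 at 12 h (7 before), because Tnfsf8, and in the latter also Tnfsf9 and Tnfsf13b, no longer passed the low-count filter. For IL-13 against control the count of 1 went to 0 with DESeq2 and to 0 with library size only, and ran from 0 to 1 with each sample left out.

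Directions that turned belonged to changes that were not called. With library size only these were Tnf from 1 h to 4 h (-0.16), Tnfsf9 in RAW264.7 with LPS (-0.16) and Tnfsf10 between untreated RAW264.7 and control BMDMs (0.18). With 1 sample left out they were Tnfsf8 at 24 h (-0.18 without control replicate 3, range to 0.67), Tnf from 12 h to 24 h (-0.025 without IFN-LPS 12 h replicate 3, range to 0.13), Tnfsf12 with IL-4 (-0.069 without IL-4 replicate 1, range to 0.36) and Tnfsf12 between IL-13 and IL-4 (-0.086 without IL-4 replicate 3, -0.081 without IL-13 replicate 1, range to 0.35). The same held for Tnfsf9 in RAW264.7 (-0.065 without control replicate 2, -0.11 without LPS replicate 1, range to 0.17) and Tnfsf10 between the untreated cells (1.95 without BMDM control replicate 2, 0.80 without RAW264.7 control replicate 1, -1.92 without RAW264.7 control replicate 2). The cause was not tested.

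The replicate block changed no call. Same-numbered samples did not deviate together (mean r of their deviations 0.02 in the time course, range -0.07 to 0.18), so the numbers did not pair the samples. Over all genes, IL-13 against IL-4 had 6 calls, 3 with DESeq2 and 2 without IL-4 replicate 3. Unstranded counts and keeping Rn45s changed no call. At this depth a change against a group with a pooled count of 3 or fewer is known only within a wide counting interval or as a ratio against a floor.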
